A study of Homo sapiens with 21 samples.

Results

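The protease inhibitors described here are the human protein-coding genes of the serpin, cystatin and TIMP families, taken by symbol, with A2M, A2ML1, SPINT1, SPINT2 and SLPI added by name. Gene identifiers were mapped to symbols, and 59 of the 58174 identifiers in the files met this rule: 35 serpins, 14 cystatins, 4 TIMPs, the 5 genes added by name, and CSTPP1. CSTPP1 (ENSG00000149179) carries a symbol that starts like those of the cystatins but encodes a regulator of tubulin polyglutamylation, and it is kept as a member only because the rule takes it. RNA was sequenced from OCI-AML5, a human acute myeloid leukemia cell line, in 21 libraries that fall into 7 groups of 3. Cells received DMSO, the vehicle (labelled 72 h), or UM171, a small molecule used to expand human blood stem cells in culture, at 500 nM for 6, 24, 48 or 72 h, and none of these 15 libraries has a guide RNA in its label. The other 6 libraries came from sgEPCR cells, in which CRISPR targeted the gene of the endothelial protein C receptor (PROCR), kept for 24 h in DMSO or in UM171 at 500 nM. The dose is that of the labels. The text of the study names a lower dose for these experiments, so it is uncertain. The study compared how cells responded to UM171 over time and when EPCR was targeted.

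The study describes several clones for the sgEPCR cells, but the labels do not tie a replicate number to a clone or guide, and nothing in them says that replicates were separate cultures, so the p-values measure the spread between these libraries, which may be technical. Because the DMSO libraries are labelled 72 h, the contrasts at 6, 24 and 48 h compare unequal times in culture, and the sgEPCR DMSO libraries (24 h) differ from DMSO (72 h) in time as well as genotype. These effects cannot be told apart. In bulk RNA, fewer cells of a type and less RNA per cell cannot be told apart either.

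Serpins trap serine proteases, and in a few cases cysteine proteases, by presenting a bait loop, and cleavage of the loop springs the serpin into a new fold that locks the enzyme to it. Cystatins plug the active site of the papain-like cysteine cathepsins, TIMPs close the zinc site of matrix metalloproteinases and some ADAMs, and alpha-2-macroglobulin (A2M) closes as a cage around almost any protease that cuts it. In myeloid cells the clade B serpins stay mostly inside the cell, where they guard the cytosol against the cell's own granule and lysosomal proteases, whereas the other clades, TIMPs, A2M, cystatin C and SLPI are mainly secreted.

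SERPINB3 and SERPINB4, the members with the largest fold changes after 72 h of UM171, lie in a cluster of clade B serpins on chromosome 18. The sequence before the start of 4 genes of this cluster, with that of TIMP1, the member with the highest level after 48 h of UM171, is printed here to show how far these neighbours share sequence. Windows were taken from RefSeq (GRCh38.p14), from 250 bases before each start, 5′ to 3′ on the strand of the gene, and the print stops where GENCODE 44 places an exon of the same gene. Capitals mark matches to the motifs listed after the sequences.
SERPINB2: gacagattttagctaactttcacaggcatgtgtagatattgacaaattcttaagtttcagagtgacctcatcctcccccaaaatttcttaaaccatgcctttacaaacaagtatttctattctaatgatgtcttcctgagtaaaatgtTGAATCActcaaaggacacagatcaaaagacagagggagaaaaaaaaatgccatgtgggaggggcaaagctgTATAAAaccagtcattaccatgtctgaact
SERPINB8: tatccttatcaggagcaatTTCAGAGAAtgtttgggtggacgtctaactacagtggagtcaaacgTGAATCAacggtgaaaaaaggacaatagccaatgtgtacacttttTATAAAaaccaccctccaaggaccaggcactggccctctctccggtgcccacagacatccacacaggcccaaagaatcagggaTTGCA
SERPINB3: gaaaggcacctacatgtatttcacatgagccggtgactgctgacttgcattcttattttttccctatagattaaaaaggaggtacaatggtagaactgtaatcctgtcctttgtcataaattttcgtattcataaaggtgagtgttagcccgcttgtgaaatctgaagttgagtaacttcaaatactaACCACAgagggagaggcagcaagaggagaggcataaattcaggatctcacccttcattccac
SERPINB4: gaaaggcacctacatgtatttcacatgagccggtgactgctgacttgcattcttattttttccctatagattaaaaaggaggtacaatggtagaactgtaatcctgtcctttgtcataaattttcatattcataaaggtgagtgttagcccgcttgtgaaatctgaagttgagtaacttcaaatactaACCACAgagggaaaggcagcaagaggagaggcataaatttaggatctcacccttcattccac
TIMP1: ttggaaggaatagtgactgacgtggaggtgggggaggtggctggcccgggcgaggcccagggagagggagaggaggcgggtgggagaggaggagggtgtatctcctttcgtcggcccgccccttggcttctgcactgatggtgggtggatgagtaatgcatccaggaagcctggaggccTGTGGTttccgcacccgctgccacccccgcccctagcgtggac

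These windows lie at chr18:63887455-63887704 on the plus strand (SERPINB2), chr18:63969831-63970028 on the plus strand (SERPINB8), chr18:63661894-63662143 on the minus strand (SERPINB3), chr18:63644257-63644506 on the minus strand (SERPINB4) and chrX:47582186-47582407 on the plus strand (TIMP1). The windows of SERPINB3 and SERPINB4 were identical at 98.8% of 250 bases, and a transcript of each, both of 1707 bases in GENCODE 44, at 95.7%. The search covered 9 motifs on both strands, TATAAA excepted, which was read on the strand of the gene. The shares that follow are of all 35116 RefSeq windows of that length. The AP-1 motif, spelled TGANTCA, was found in 6.57% of these windows. The TATA box, read as TATAAA, was found in 6.8%. For RUNX the letters were TGTGGT, found in 11%. The STAT motif TTCNNNGAA was found in 6.57% and the C/EBP motif TTGCNNAA in 9.05%. The E-box was searched as CACGTG and found in 6.34%. The PU.1 motif GAGGAAGT was found in 2.17%, the CRE motif TGACGTCA in 1.65% and the NF-kB motif in 1.73%. No match overlapped one of another motif among the members. A match is a description of the letters and not a bound site. SERPINB2 held an AP-1 match at 102 to 96 bases before the start and a TATA match at 30 to 25. SERPINB8 held AP-1 matches at 185 to 179 and at 28 to 22 bases before the RefSeq start, the second of them in the 52 bases left out of the print because GENCODE counts them as exon. It also held a STAT match at 231 to 223, a TATA match at 140 to 135 and a C/EBP match at 57 to 50, of which the print shows the first letters. SERPINB3 and SERPINB4 shared a RUNX match at 62 to 57 bases, on the opposite strand, and TIMP1 had a RUNX match at 71 to 66. RefSeq windows were at hand for 38 of the 59 members, with 55 windows in all, since some genes have several. Of the 55 windows, RUNX matched 12, AP-1 9, TATA 9, STAT 8, C/EBP 7, PU.1 2, E-box 2, NF-kB 1 and CRE 0. The windows with an AP-1 match belong to 8 members, namely SERPINB2, SERPINB5, SERPINB7, SERPINB8, SERPINB12, SERPINB13, SERPINE3 and SERPINI2. Of these, SERPINB5, SERPINB7, SERPINB12, SERPINB13 and SERPINE3 were too low to test. Only SERPINB2 and SERPINB8 were called higher with UM171 than in DMSO in the control line. By member, RUNX matched 12, STAT 8, TATA 8, C/EBP 7, PU.1 2, E-box 2, NF-kB 1 and CRE 0. The shares above are per window and not per member. SERPINB10, A2M, CSTA, CST7 and SLPI, which are described below, are among the 21 with no window.

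Totals lay between 24.3 and 51.5 M counts per library. In 2 libraries, sgEPCR DMSO replicate 1 and sgEPCR UM171 replicate 2, mitochondrial genes took 35.9% and 32.2% of the counts, against 7.73 to 13.5% in the other 19. Of the tested members with a TPM above 0 in both other libraries of the group, 20 of 22 and 19 of 24 had their lowest TPM in these 2 libraries, with a median of 0.547 and 0.626 times the mean of those other libraries. The myeloid markers PTPRC, CD33 and SPI1 were present in every library, while KIT reached no more than 0.25 TPM, MPO no more than 9.08 and CD14 no more than 0.42. PROCR, the targeted gene, had 3.37 to 4.3 TPM in DMSO and 2.3 to 4.53 in sgEPCR DMSO. With UM171 for 24 h it had 48.5 TPM in each control library and 4.23 to 8.94 in the sgEPCR libraries, so its transcript remained detectable.

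Of the 59 members, 24 passed the filter on low counts in the fit of the 15 time course libraries, and 23 of these, all but SERPINF2, in the fit of the 12 libraries used for the sgEPCR comparisons. The other 35 were too low to test. They never exceeded 8 counts in a library, and 19 of them had 0 counts in all 21, which at this depth allows up to 3 counts per library. The 19 at 0 were the secreted cystatins CST1, CST2, CST5, CST8, CST9, CST9L and CST11, the clade A serpins SERPINA2, SERPINA3, SERPINA4, SERPINA5, SERPINA7, SERPINA9, SERPINA11 and SERPINA12, and SERPINB7, SERPING1 (C1 inhibitor), TIMP3 and A2ML1. Traces of 1 to 8 counts at most were found for CST4, CST6, CSTL1, SERPINA6, SERPINA10, SERPINB5, SERPINB9, SERPINB11, SERPINB12, SERPINB13, SERPINC1 (antithrombin), SERPINE2, SERPINE3, SERPINF1, SPINT2 and TIMP4. SERPINB9, the inhibitor of granzyme B, was among them with at most 2 counts. TIMP4 and SERPINB11 were at 0 in all DMSO libraries. Against a floor of 3 counts per library, TIMP4 stood at 1.81 times that floor at 48 h and SERPINB11 at 2.135 times at 72 h. These ratios do not allow for the counting error of so few counts. A member that passes the filter only through the group in which it is high must differ between groups, so the counts below describe the tested members and are not evidence about all 59.

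A gene was called when its edgeR quasi-likelihood test gave a Benjamini-Hochberg adjusted p under 0.0001 over all tested genes and it differed by more than 2-fold. The limits are those of the study, whereas the test is not, since the study used kallisto and sleuth. Shares of all genes were taken only for the main edgeR fits, at these limits and at an adjusted p under 0.05. Counts of members by DESeq2, limma, an unadjusted p or other alternatives have no such share and only describe these members. After 6 h of UM171, 2 of the 24 tested members were higher than in DMSO, where 6.78% of all 16575 tested genes were higher. After 24 h 6 of 24 were higher (9.03% of all genes), after 48 h 14 (11.7%) and after 72 h 16 (15%). In the fit of the 15 time course libraries, no member was called lower at any of these times by edgeR, DESeq2 or limma, where 0.247%, 4.7%, 4.67% and 5.8% of all genes were called lower. At an unadjusted p under 0.05, 1, 5, 4 and 3 members were lower. The fit of 12 libraries called SERPINI2, near the floor of 3 counts, lower at 24 h than in DMSO (1.67% of all genes), with a log2 fold change of -3.34 ± 0.42 (SE, edgeR adjusted p = 8.8e-05). The median log2 fold change of the 24 members was 0.17, 0.66, 1.28 and 1.61 at the 4 times, beside medians of 0.02, -0.01, -0.00 and 0.02 over all genes. Between consecutive times, 3 members were higher and 1 lower at 24 h than at 6 h (3.61% and 6.43% of all genes), 7 were higher at 48 h than at 24 h (2.51%) and 4 at 72 h than at 48 h (2.59%). None was called lower in the steps to 48 and 72 h (0.338% and 0.76%) by edgeR, DESeq2 or limma, with 1 and 4 lower at an unadjusted p under 0.05.

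Smaller shifts were common among all genes. At an adjusted p under 0.05 and with any fold, 11 members were higher and 1 lower at 6 h (31.8% and 30.3% of all genes), 13 and 5 at 24 h (34.9% and 34.8%), 19 and 4 at 48 h (37.1% and 35%) and 21 and 3 at 72 h (38.8% and 36.8%). Between 6 and 24 h the counts were 10 and 6 (32.5% and 34.6%), between 24 and 48 h 16 and 1 (23.6% and 22%), and between 48 and 72 h 13 and 4 (28% and 29.2%). For the sgEPCR response they were 15 and 2 (27% and 25.1%), for its difference from the control 9 and 2 (21.9% and 23.1%), for sgEPCR DMSO against DMSO 1 and 6 (17.4% and 16.3%), for sgEPCR UM171 against UM171 24 h 12 and 2 (20.8% and 22.2%), and for UM171 24 h in the fit of 12 libraries 10 and 4 (24.5% and 20.2%).

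Most of the calls at 72 h were made by 48 h, and SPINT1 and SERPINB10 alone were called at all 4 times. The summed TPM of the 59 members was 908.4 to 965 in DMSO, 1014 to 1052 at 6 h, 1100 to 1196 at 24 h, 1602 to 2001 at 48 h and 2303 to 2474 at 72 h. These ranges do not overlap, and the sum is carried by a few genes, mainly SERPINB1 and TIMP1. Scaling by total counts in place of TMM moved the median of all genes by 0.18 at 6 h and -0.15 between 6 and 24 h, and by 0.17 for the sgEPCR response, 0.14 for its difference from the control, -0.25 for the sgEPCR against control DMSO libraries and -0.11 for the UM171 libraries of both lines (log2). Fold changes below are relative to the TMM scaling. The heat map of fold changes shows the tested members in order of their value at 72 h.

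**Figure D1:**
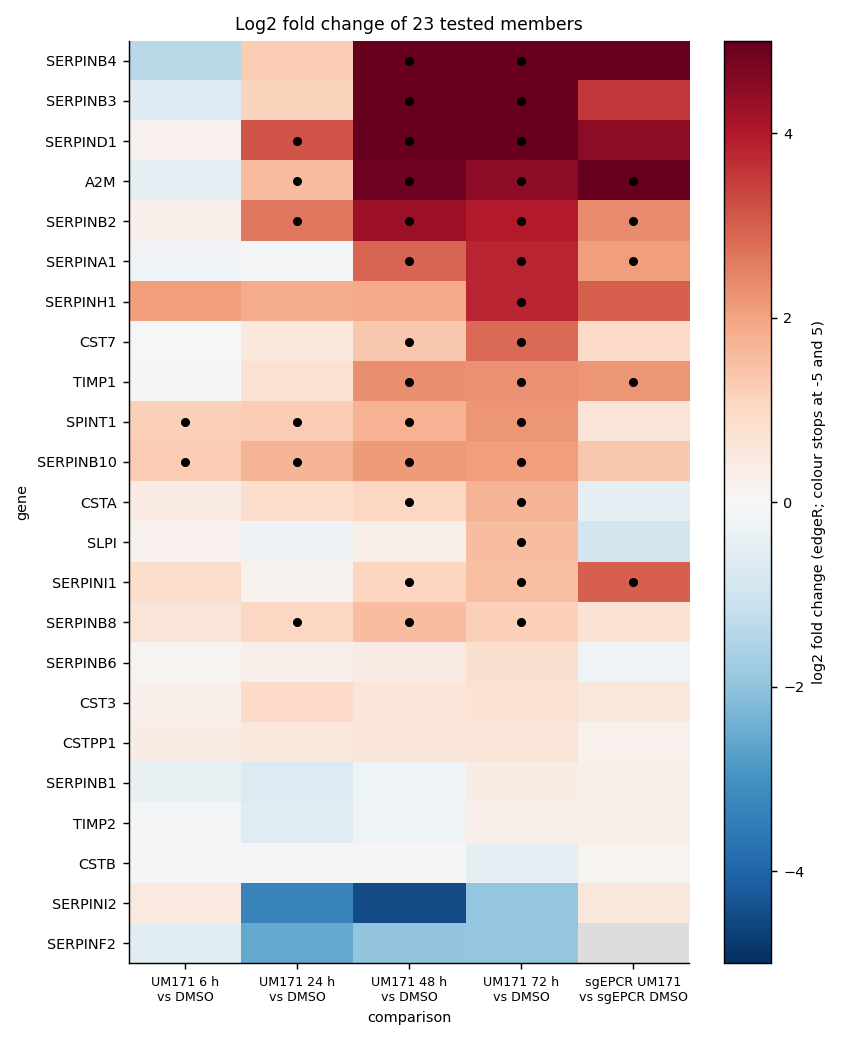
Log2 fold change from edgeR (colour) of 23 tested members in 5 comparisons (columns), with genes in rows ordered by their value at 72 h; a dot marks a call, and grey marks SERPINF2, which was not tested in the sgEPCR fit. Of the genes drawn, 2 have a dot at 6 h, 15 at 72 h and 5 in the sgEPCR column.

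The clade B serpins on chromosome 18 lie in 543 kb, between 63476958 and 64019779 in GRCh38, in the order SERPINB5, SERPINB12, SERPINB13, SERPINB4, SERPINB11, SERPINB3, SERPINB7, SERPINB2, SERPINB10 and SERPINB8. The 5 of these 10 that were tested were all called higher at 72 h, where 15% of all tested genes were. Of these 5, SERPINB3 and SERPINB4 passed the filter through the late groups and share reads that fit both. The count of 5 is therefore a description and not evidence about the locus. The other 5 genes stayed at or below 8 counts in every library. SERPINB2 (ENSG00000197632), plasminogen activator inhibitor 2, blocks urokinase and is a classical product of activated monocytes. It measured 6.86, 6.07 and 6.4 TPM in DMSO and 8.09, 8.17 and 8.66 at 6 h, then 42.5, 37.8 and 40 at 24 h, 128, 127 and 97.6 at 48 h and 98.3, 104 and 103 at 72 h. Every library from 24 h on lay above every DMSO and 6 h library. Against DMSO, the log2 fold change was 2.65 ± 0.06 (SE, edgeR adjusted p = 2.4e-15) at 24 h, 4.27 ± 0.06 (SE, edgeR adjusted p = 1.8e-17) at 48 h and 3.97 ± 0.06 (SE, edgeR adjusted p = 1.4e-17) at 72 h. It also rose from 6 to 24 h by 2.38 ± 0.06 (SE, edgeR adjusted p = 2.0e-14) and from 24 to 48 h by 1.62 ± 0.05 (SE, edgeR adjusted p = 1.0e-12).

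SERPINB8 (ENSG00000166401), an inhibitor of furin-type and trypsin-like proteases, started higher and moved less. Its TPM was 58, 53.9 and 57.4 in DMSO, 95.5, 94.9 and 95.7 at 6 h, 126, 128 and 121 at 24 h, 168, 163 and 160.1 at 48 h and 130.5, 128 and 138 at 72 h. Each UM171 group lay wholly above DMSO, with the highest values at 48 h. In the fit, the log2 fold change was 0.63 ± 0.06 (SE, edgeR adjusted p = 3.4e-07) at 6 h, which is under 2-fold, then 1.05 ± 0.06 (SE, edgeR adjusted p = 2.3e-10) at 24 h, 1.55 ± 0.07 (SE, edgeR adjusted p = 1.1e-12) at 48 h and 1.18 ± 0.06 (SE, edgeR adjusted p = 2.6e-11) at 72 h. SERPINB10 (ENSG00000242550), or bomapin, is found mainly in bone marrow and myeloid lines. It stayed low, with 0.35, 0.77 and 0.7 TPM in DMSO, 2.1, 1.71 and 1.38 at 6 h, 1.78, 2.06 and 2.55 at 24 h, 2.53, 3.32 and 1.84 at 48 h and 2.63, 2.96 and 3.19 at 72 h. All 12 UM171 libraries exceeded the 3 in DMSO. Its log2 fold change was 1.29 ± 0.22 (SE, edgeR adjusted p = 7.9e-05) at 6 h and 2.10 ± 0.21 (SE, edgeR adjusted p = 6.4e-08) at 72 h. The call at 6 h was lost when any of 12 of the 15 libraries of the fit was left out, that is, all but UM171 48 h replicates 2 and 3 and UM171 72 h replicate 1. Over these fits the log2 fold change ran from 1.05 to 1.44 and the adjusted p reached 8.6e-04.

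SERPINB3 (ENSG00000057149) and SERPINB4 (ENSG00000206073), the squamous cell carcinoma antigens, are near-identical neighbours that inhibit lysosomal cysteine cathepsins and chymotrypsin-like proteases respectively. Reads that fit both are split between them by the counting, so their single values are uncertain and the sum is given first. The summed expected counts were 4, 3 and 12 in DMSO, 2, 2 and 5 at 6 h, and 16, 13 and 22 at 24 h. They were 1310, 1005 and 482 at 48 h and 1462, 1817 and 1985 at 72 h. The genes thus went from a handful of counts to at least 482 in every library between 24 and 48 h, with 48 h replicate 3 the lowest of its group. Per M counts, the sum was 149 times its DMSO level at 48 h (95% counting interval 95.0 to 247) and 279.9 times at 72 h (179 to 465), where the interval covers counting error only. SERPINB3 alone had 7.64, 9.11 and 4.87 TPM at 48 h and 14.4, 18.6 and 17.2 at 72 h, and SERPINB4 17.6, 19.7 and 9.46 and 24.8, 29.2 and 29.5. Both had at most 0.19 TPM in DMSO and passed the filter through the late groups. Both were called at 48 h and 72 h, with log2 fold changes at 72 h of 7.86 ± 0.35 (SE, edgeR adjusted p = 1.7e-12) for SERPINB3 and 8.09 ± 0.31 (SE, edgeR adjusted p = 2.7e-13) for SERPINB4. The further rise of SERPINB3 from 48 to 72 h, 1.13 ± 0.18 (SE, edgeR adjusted p = 4.2e-05), was lost when any of UM171 48 h replicates 1 and 3 or any UM171 72 h library was left out (0.98 to 1.2).

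The second group of clade B serpins lies at 2832332 to 2972165 on chromosome 6 and behaved otherwise. SERPINB1 (ENSG00000021355), the inhibitor of neutrophil elastase, cathepsin G and proteinase 3, had the highest TPM of all members in DMSO. Its values were 371, 374 and 389 in DMSO, 311, 317 and 326 at 6 h, 249, 252 and 259.8 at 24 h, 348, 373 and 279 at 48 h and 495, 518 and 543 at 72 h. The 24 h libraries were the lowest and the 72 h libraries the highest, with no overlap between DMSO and either. It had a log2 fold change of -0.67 ± 0.05 (SE, edgeR adjusted p = 1.3e-09) at 24 h and 0.35 ± 0.05 (SE, edgeR adjusted p = 2.5e-06) at 72 h, both past an adjusted p of 0.05 but under 2-fold. SERPINB6 (ENSG00000124570), a cytosolic inhibitor of cathepsin G, measured 72.2, 78.8 and 73.8 TPM in DMSO and 139, 144 and 145 at 72 h, a log2 fold change of 0.81 ± 0.04 (SE, edgeR adjusted p = 2.9e-12), also under 2-fold. The third gene of this group, SERPINB9, had at most 2 counts. Summed, the chromosome 6 genes took 443 to 463 TPM in DMSO, 344 to 360.1 at 24 h and 635 to 688 at 72 h, whereas the chromosome 18 genes took 61.0 to 65.4, 165 to 171 and 271 to 291.

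The tested serpins of the other clades were low in DMSO and reached their highest control-line levels at 72 h, but for SERPINF2 and SERPINI2. SERPINA1 (ENSG00000197249), alpha-1-antitrypsin, the main plasma inhibitor of neutrophil elastase, is the only tested gene of the 10 clade A serpins on chromosome 14. It measured 4.47, 4.57 and 4.97 TPM in DMSO, 5.26, 4.16 and 4.68 at 6 h, 4.15, 4 and 5.6 at 24 h, 37.5, 37.2 and 25.5 at 48 h and 61.4, 70.1 and 69.1 at 72 h. DMSO, 6 h and 24 h overlapped, and both later groups lay wholly above them. edgeR gave a log2 fold change of -0.10 ± 0.14 (SE, edgeR adjusted p = 0.54) at 24 h, 2.91 ± 0.11 (SE, edgeR adjusted p = 3.4e-13) at 48 h and 3.83 ± 0.11 (SE, edgeR adjusted p = 7.1e-15) at 72 h, and the rise from 24 to 48 h was 3.01 ± 0.11 (SE, edgeR adjusted p = 4.0e-12).

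A2M (ENSG00000175899), the plasma cage inhibitor, had 1.74, 1.84 and 2.49 TPM in DMSO, 1, 1.02 and 2.04 at 6 h, 4.27, 2.73 and 5.45 at 24 h, 47.8, 47.6 and 34.3 at 48 h and 29.3, 27.4 and 34.1 at 72 h. It was highest at 48 h, and every library from 24 h on exceeded every DMSO library. Against DMSO, the log2 fold change was 1.55 ± 0.21 (SE, edgeR adjusted p = 4.2e-06) at 24 h, 4.86 ± 0.18 (SE, edgeR adjusted p = 2.8e-13) at 48 h and 4.46 ± 0.18 (SE, edgeR adjusted p = 5.8e-13) at 72 h, with steps of 2.04 ± 0.22 (SE, edgeR adjusted p = 4.1e-07) from 6 to 24 h and 3.31 ± 0.16 (SE, edgeR adjusted p = 7.9e-11) from 24 to 48 h. SERPIND1 (ENSG00000099937), heparin cofactor II, a thrombin inhibitor, had only 1, 3 and 2 counts in DMSO, 2, 2 and 3 at 6 h and 20, 24 and 19 at 24 h. It then had 116, 60 and 57 counts at 48 h and 119, 114 and 120.0 at 72 h. No library from 24 h on overlapped DMSO. SERPIND1 passed the filter on low counts through these later groups. Per M counts it was 59.4 times its DMSO level at 72 h (95% counting interval 27.0 to 163), and its log2 fold changes were 3.14 ± 0.40 (SE, edgeR adjusted p = 2.2e-06) at 24 h and 5.74 ± 0.31 (SE, edgeR adjusted p = 2.1e-11) at 72 h.

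SERPINH1 (ENSG00000149257), or HSP47, is a collagen chaperone of the endoplasmic reticulum and inhibits no protease. It had 5, 1 and 8 counts in DMSO, 32, 17 and 12 at 6 h, 26, 14 and 13 at 48 h and 63, 78 and 66 at 72 h, with all UM171 libraries above DMSO in counts and in TPM. It passed the filter on low counts through UM171 groups. Its log2 fold change was 2.07 ± 0.44 (SE, edgeR adjusted p = 6.3e-04) at 6 h, short of the limit, and 3.80 ± 0.38 (SE, edgeR adjusted p = 7.6e-08) at 72 h. The rise from 48 to 72 h, 1.91 ± 0.31 (SE, edgeR adjusted p = 4.7e-05), was lost whenever any of the 6 libraries of those groups was left out, with values of 1.8 to 2.01.

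SERPINI1 (ENSG00000163536), neuroserpin, an inhibitor of tissue plasminogen activator, had values near those of DMSO at 24 h and higher ones before and after. It measured 2.82, 2.76 and 2.27 TPM in DMSO, 4.74, 5.39 and 4.79 at 6 h, 3.39, 2.3 and 3.04 at 24 h, 5.65, 5.69 and 4.29 at 48 h and 9.04, 7.74 and 8.24 at 72 h. The 24 h libraries overlapped DMSO, and those at 6, 48 and 72 h did not. In the fit, the log2 fold change was 0.87 ± 0.12 (SE, edgeR adjusted p = 8.5e-06) at 6 h, 0.17 ± 0.12 (SE, edgeR adjusted p = 0.23) at 24 h, 1.08 ± 0.12 (SE, edgeR adjusted p = 3.2e-07) at 48 h and 1.52 ± 0.12 (SE, edgeR adjusted p = 2.1e-09) at 72 h. SERPINI2 (ENSG00000114204), or pancpin, was near the floor of 3 counts, with 7.13, 13 and 10 counts in DMSO, 12.1, 16 and 14 at 6 h, 1, 1 and 1 at 24 h, 1, 0 and 0 at 48 h and 0, 3 and 5 at 72 h. It was called lower at 24 h than at 6 h, with 0.0558 of the 6 h level per M counts (95% counting interval 0.0111 to 0.175) and a log2 fold change of -3.85 ± 0.65 (SE, edgeR adjusted p = 5.7e-05). DESeq2 did not call it. It was also lost in 9 of 15 fits that left out 1 library, those without any library of the 6 h or 24 h groups, DMSO replicate 3, UM171 48 h replicate 1 or UM171 72 h replicate 2, with values of -4.08 to -3.64. SERPINF2 (ENSG00000167711), alpha-2-antiplasmin, had 7, 23 and 23 counts in DMSO and 3, 4 and 3 at 24 h, with a log2 fold change of -2.55 ± 0.53 (SE, edgeR adjusted p = 3.8e-04) that missed the call.

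TIMP1 (ENSG00000102265), a secreted inhibitor of matrix metalloproteinases, had the highest TPM of all members at 48 and 72 h. It measured 119.8, 126 and 138 TPM in DMSO, 137, 152 and 137 at 6 h, 207, 243 and 269.6 at 24 h, 715, 694 and 498 at 48 h and 653, 698 and 734 at 72 h. DMSO and 6 h overlapped, and each later group lay above both, with UM171 48 h replicate 3 the lowest of its group. Its log2 fold change was -0.07 ± 0.06 (SE, edgeR adjusted p = 0.29) at 6 h, 0.78 ± 0.06 (SE, edgeR adjusted p = 2.3e-09) at 24 h, 2.32 ± 0.06 (SE, edgeR adjusted p = 1.7e-15) at 48 h and 2.30 ± 0.06 (SE, edgeR adjusted p = 1.4e-15) at 72 h, and the step from 24 to 48 h was 1.55 ± 0.06 (SE, edgeR adjusted p = 2.7e-12). TIMP2 (ENSG00000035862), which also takes part in the activation of MMP2, went the other way at 24 h. It had 26.7, 25.4 and 27.3 TPM in DMSO, 18.6, 18 and 18 at 24 h and 33.2, 33.2 and 33.5 at 72 h, without overlap. Its log2 fold change was -0.60 ± 0.05 (SE, edgeR adjusted p = 1.1e-08) at 24 h and 0.24 ± 0.05 (SE, edgeR adjusted p = 3.0e-04) at 72 h, both under 2-fold. TIMP3 was at 0 and TIMP4 at 7 counts or fewer.

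Of the cystatins, 4 were tested. CSTA (ENSG00000121552), the cytosolic inhibitor of cathepsins B, H and L, measured 63.7, 61.4 and 65.6 TPM in DMSO, 98.7, 100.2 and 87.3 at 6 h, 118, 119 and 119.6 at 24 h, 121, 126 and 132 at 48 h and 216, 212 and 215 at 72 h. Each UM171 group lay wholly above DMSO, and 72 h above all others. It had a log2 fold change of 0.87 ± 0.08 (SE, edgeR adjusted p = 4.7e-08) at 24 h, 1.02 ± 0.08 (SE, edgeR adjusted p = 4.7e-09) at 48 h and 1.68 ± 0.08 (SE, edgeR adjusted p = 4.3e-12) at 72 h. The call at 48 h was lost without DMSO replicate 2 (1.00) or UM171 48 h replicate 3 (0.91). CST7 (ENSG00000077984), cystatin F, which controls cathepsin C in granules of leukocytes, had 2.48, 1.93 and 2.5 TPM in DMSO, 3.3, 3.1 and 4.06 at 24 h, 5.78, 5.88 and 5.63 at 48 h and 17.8, 17.8 and 16.4 at 72 h. The groups from 24 h on did not overlap DMSO or each other. edgeR gave a log2 fold change of 1.34 ± 0.15 (SE, edgeR adjusted p = 3.7e-07) at 48 h and 2.83 ± 0.14 (SE, edgeR adjusted p = 5.7e-12) at 72 h, with 1.49 ± 0.12 (SE, edgeR adjusted p = 2.9e-08) from 48 to 72 h.

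The widely expressed cystatins had smaller fold changes. CST3 (ENSG00000101439), cystatin C, the main secreted cystatin, had 37.5, 40.1 and 37.7 TPM in DMSO and 79, 86.3 and 81.9 at 24 h, where its log2 fold change was 0.98 ± 0.07 (SE, edgeR adjusted p = 9.3e-10), just under 2-fold. CSTB (ENSG00000160213), a cytosolic cystatin, had 54.2, 58.5 and 56.4 TPM in DMSO and 41.8, 44.1 and 43.1 at 72 h, a log2 fold change of -0.46 ± 0.06 (SE, edgeR adjusted p = 1.2e-06). CSTB was thus lower at 72 h without overlap, whereas its cytosolic relative CSTA was higher. CSTPP1 lay between 8.7 and 16.4 TPM in the control line, with 0.66 ± 0.08 (SE, edgeR adjusted p = 8.4e-07) at 72 h.

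The remaining inhibitors were called at opposite ends of the time course. SPINT1 (ENSG00000166145), a membrane Kunitz inhibitor of matriptase and of the activator of hepatocyte growth factor, was called from 6 h on. It had 9.21, 9.48 and 10.4 TPM in DMSO, 22.2, 22.6 and 24.5 at 6 h, 21.4, 20.3 and 23.3 at 24 h, 32.3, 29.8 and 24.3 at 48 h and 39.7, 44 and 41.5 at 72 h. All 12 UM171 libraries exceeded DMSO. Against DMSO, the log2 fold change was 1.2 ± 0.06 (SE, edgeR adjusted p = 1.6e-10) at 6 h, 1.26 ± 0.06 (SE, edgeR adjusted p = 2.1e-11) at 24 h, 1.74 ± 0.06 (SE, edgeR adjusted p = 2.2e-13) at 48 h and 2.22 ± 0.06 (SE, edgeR adjusted p = 7.5e-15) at 72 h. SLPI (ENSG00000124107), a secreted inhibitor of neutrophil elastase and cathepsin G, was called at 72 h alone. It had 65.7, 67.7 and 76.2 TPM in DMSO, 57.9, 58.1 and 63.9 at 24 h, 87.7, 87.5 and 79 at 48 h and 202, 222 and 213 at 72 h. The 72 h libraries stood apart from all others, and the 24 h libraries lay below DMSO. In the fit, the log2 fold change was -0.27 ± 0.06 (SE, edgeR adjusted p = 6.9e-04) at 24 h and 1.53 ± 0.06 (SE, edgeR adjusted p = 1.3e-13) at 72 h, and the step from 48 to 72 h was 1.22 ± 0.06 (SE, edgeR adjusted p = 2.8e-11). SPINT2, the close relative of SPINT1, never exceeded 7 counts.

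**Figure D2:**
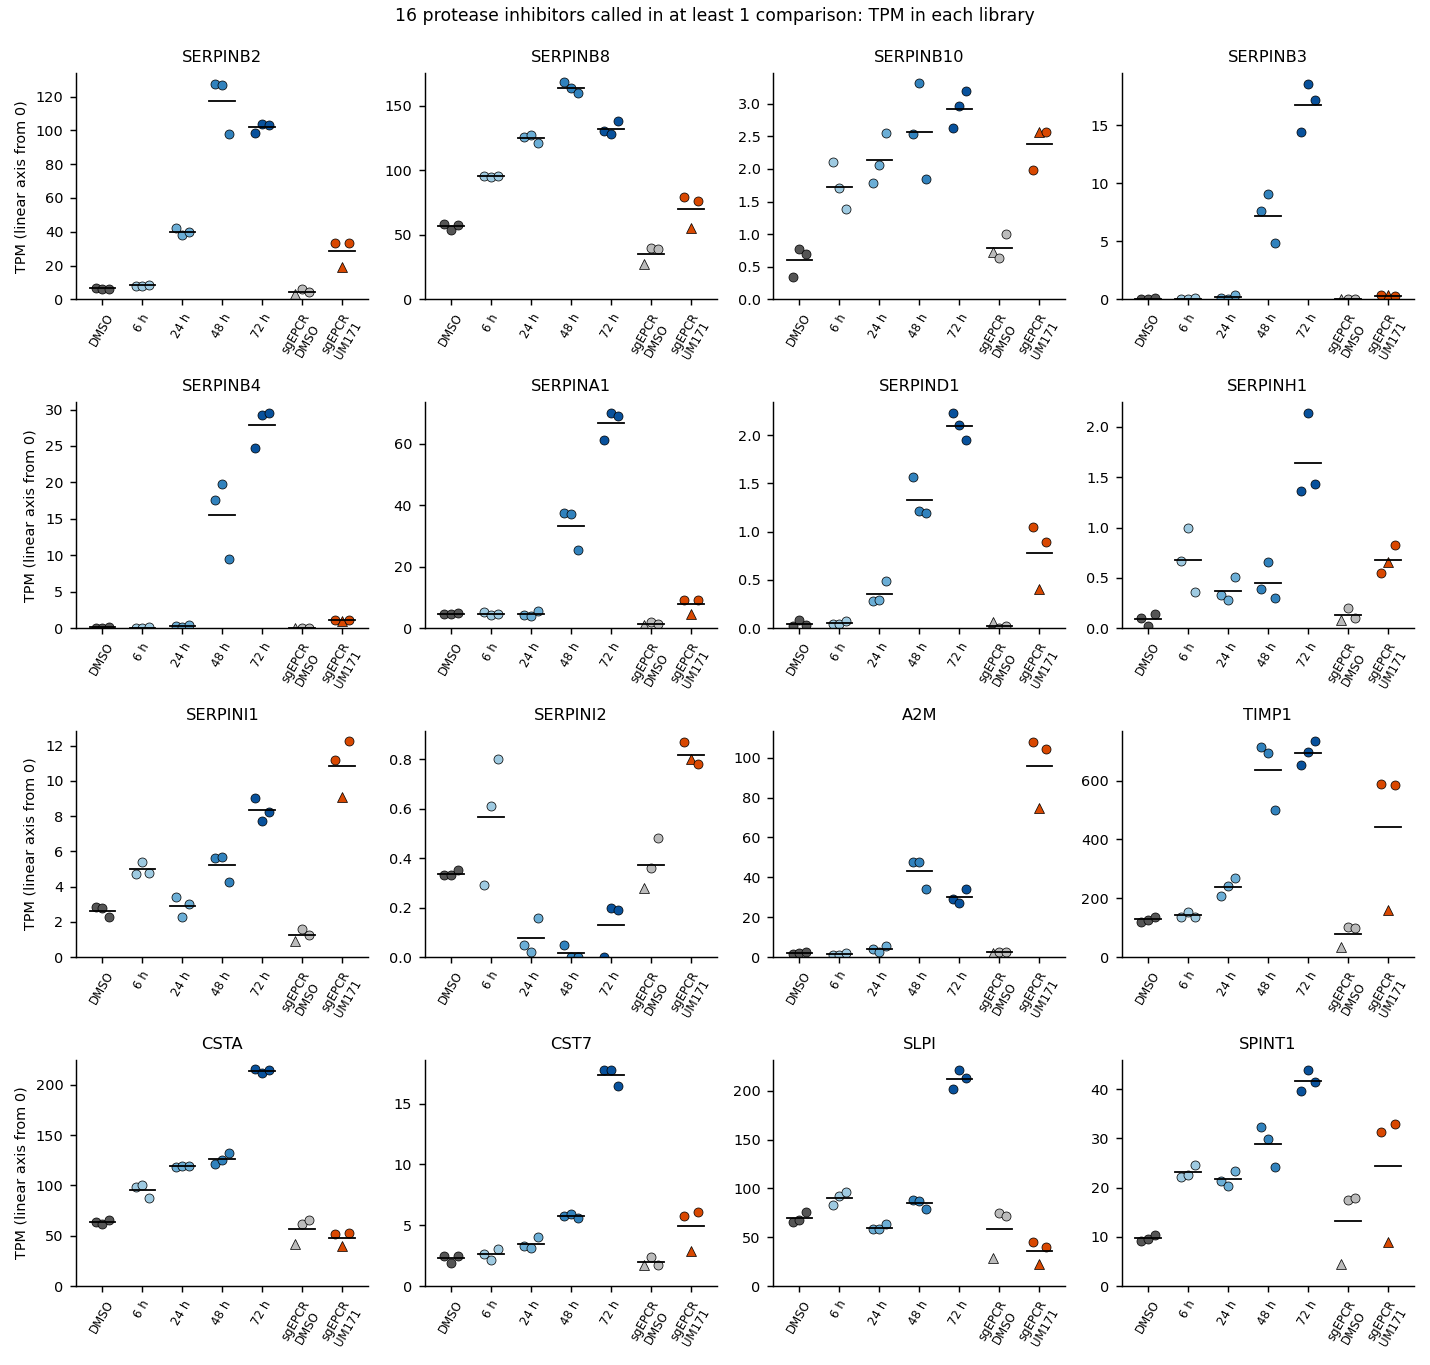
TPM (linear axes from 0, a panel per gene) of 16 members called in at least 1 comparison, in each of the 21 libraries; points are libraries, triangles the 2 libraries with over 20% mitochondrial counts, and lines the means of 3. Within the control line, SERPINB3, SERPINB4 and SERPINA1 are highest at 48 and 72 h, while SPINT1, SERPINB8 and SERPINB10 are already up at 6 h, and A2M peaks in sgEPCR UM171.

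**Figure D3:**
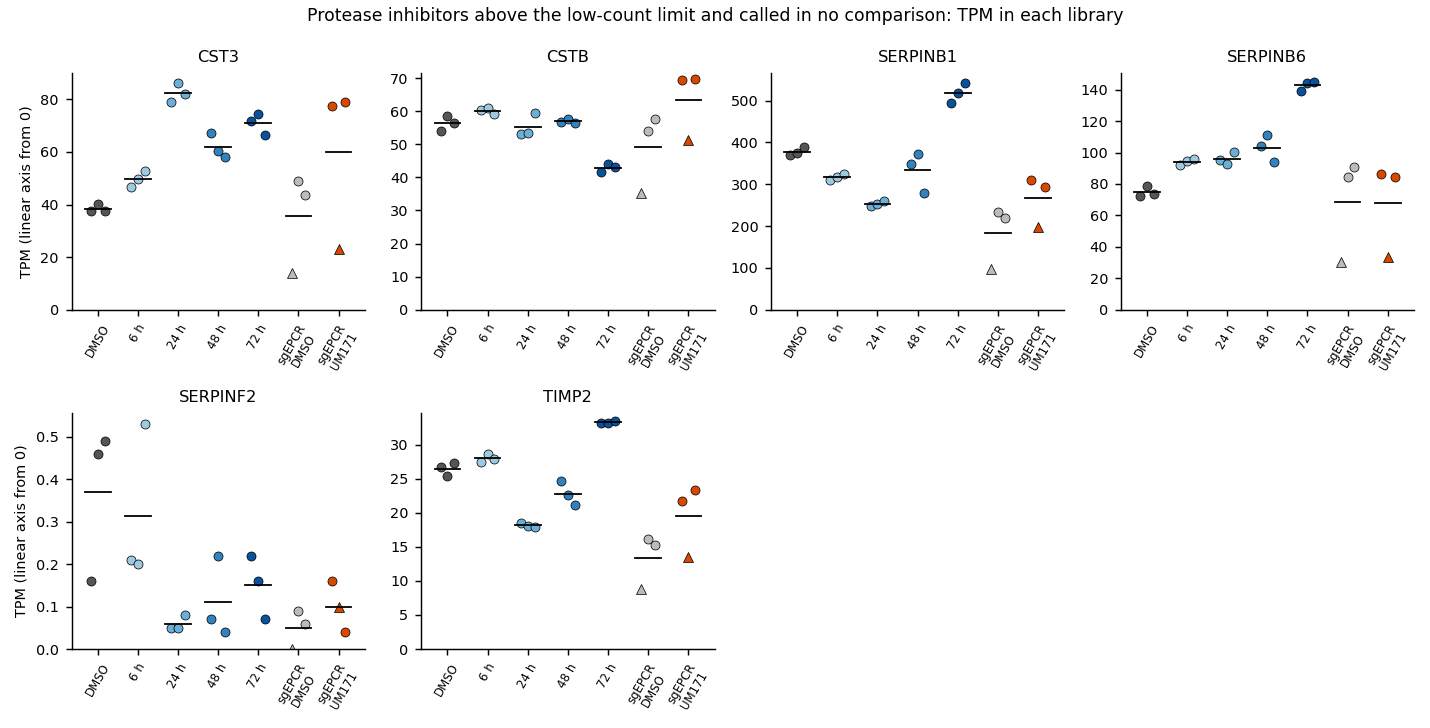
TPM (linear axes from 0, a panel per gene) of 6 inhibitors above the filter that were called in no comparison, in each of the 21 libraries; points are libraries, triangles the 2 libraries with over 20% mitochondrial counts, and lines the means of 3. SERPINB1 and TIMP2 are lowest at 24 h within the control line, CSTB is lowest there at 72 h, and the triangles of CST3 and SERPINB6 lie far under their group.

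In sgEPCR cells kept in DMSO, no member was called against control DMSO by edgeR (1.43% of 15901 genes were called higher and 1.41% lower). DESeq2 called 2 members lower, limma none, and at an unadjusted p under 0.05, 2 were higher and 7 lower. No share of all genes was taken for these counts. SERPINA1 had 0.93, 2.07 and 1.51 TPM in sgEPCR DMSO against 4.47, 4.57 and 4.97 in control DMSO, without overlap, with -1.14 ± 0.16 (SE, edgeR adjusted p = 2.6e-04). SERPINB1 had 97, 234 and 220.2 TPM in sgEPCR DMSO, all below control DMSO, with -0.70 ± 0.06 (SE, edgeR adjusted p = 1.7e-05). Without the 2 libraries rich in mitochondrial counts, 1 member was called higher and 2 lower, with SPINT1 at 1.09 and SERPINA1 at -1.17. Leaving out sgEPCR UM171 replicate 2 alone gave 1 call.

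After 24 h of UM171 in sgEPCR cells, 6 of the 23 tested members were called higher than in sgEPCR DMSO and none lower (6.99% and 3.33% of all genes; DESeq2 and limma also called none lower, and 2 were lower at an unadjusted p under 0.05). They included A2M, SERPINA1, SERPINB2, SERPINI1 and TIMP1. Without the 2 libraries rich in mitochondrial counts, CST7 (1.32), SERPIND1 (6.42) and SERPINB4 (8.39) were called as well, 9 in all. SERPIND1 and SERPINB4 were near the floor in sgEPCR DMSO and passed the filter through UM171 groups. Their calls are therefore a description and not evidence. When the 6 sgEPCR libraries were fitted by themselves, 1 member, A2M, was called. A2M went from 2.03, 2.75 and 2.55 TPM in sgEPCR DMSO to 108, 74.8 and 104 in sgEPCR UM171, the highest levels of A2M in the series, a log2 fold change of 5.10 ± 0.26 (SE, edgeR adjusted p = 9.2e-08). SERPINI1 went from 0.89, 1.58 and 1.27 TPM to 11.2, 9.11 and 12.3, a log2 fold change of 3.01 ± 0.18 (SE, edgeR adjusted p = 3.1e-07).

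TIMP1 went from 33.9, 103 and 97.7 TPM to 587, 159 and 585 in sgEPCR cells. The library rich in mitochondrial counts was the lowest of each group, and the groups still did not overlap. The log2 fold change of TIMP1 was 2.22 ± 0.11 (SE, edgeR adjusted p = 7.1e-08). SERPINA1 went from 0.93, 2.07 and 1.51 TPM to 9.22, 4.62 and 9.32, with 2.11 ± 0.16 (SE, edgeR adjusted p = 1.3e-06), and SERPINB2 from 3.26, 5.88 and 4.59 TPM to 33.5, 19 and 33.3, with 2.35 ± 0.15 (SE, edgeR adjusted p = 3.8e-07). SERPINB4 had 0 counts in all 3 sgEPCR DMSO libraries and 41.5, 47.3 and 45.8 in sgEPCR UM171, at least 14.4-fold higher against a floor of 3 counts per library. In the sum with SERPINB3 this was 1, 1 and 1 counts against 55, 62 and 59. SLPI and CSTA, by contrast, had lower values with UM171 in sgEPCR cells. SLPI measured 28.3, 74.3 and 71.2 TPM in sgEPCR DMSO and 45.6, 22.1 and 40.1 in sgEPCR UM171, overlapping through sgEPCR DMSO replicate 1, with -0.90 ± 0.09 (SE, edgeR adjusted p = 1.5e-05). CSTA measured 41.9, 62 and 65.3 TPM and 51.3, 39.7 and 52.9, also overlapping, with -0.49 ± 0.17 (SE, edgeR adjusted p = 0.036).

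SERPINB8, SERPINB10 and SPINT1 were called higher at 24 h in the control line in the fit of 15 libraries only. In the fit of 12 libraries they were called in neither line. The coefficient of variation between libraries in edgeR was 0.187 in the fit of 12 and 0.0564 in the fit of 15. SERPINB8 had 27.2, 39.8 and 39.1 TPM in sgEPCR DMSO and 79.6, 54.9 and 76.4 in sgEPCR UM171, without overlap, with 0.71 ± 0.31 (SE, edgeR adjusted p = 0.075), under 2-fold. SERPINB10 had 0.73, 0.64 and 1 TPM and 1.99, 2.57 and 2.57, with 1.33 ± 0.39 (SE, edgeR adjusted p = 0.015). SPINT1 had 4.52, 17.5 and 17.9 TPM and 31.2, 8.96 and 33, with 0.63 ± 0.34 (SE, edgeR adjusted p = 0.14). The differences of their responses from the control line were -0.34 ± 0.43 (SE, edgeR adjusted p = 0.56), -0.37 ± 0.56 (SE, edgeR adjusted p = 0.62) and -0.64 ± 0.48 (SE, edgeR adjusted p = 0.31), none of them called. CST7 had 1.7, 2.42 and 1.76 TPM and 5.75, 2.89 and 6.1, with 0.98 ± 0.24 (SE, edgeR adjusted p = 0.0063). SERPIND1 had 4, 0 and 1 counts in sgEPCR DMSO and 57, 27 and 58 in sgEPCR UM171, with 4.47 ± 0.66 (SE, edgeR adjusted p = 2.0e-04), and SERPINH1 had 2, 5 and 3 and 28, 21 and 44 counts, with 2.97 ± 0.50 (SE, edgeR adjusted p = 5.0e-04). Neither passed the edgeR limit, and DESeq2 called both. Both passed the filter on low counts through UM171 groups. SERPINB1, the elastase inhibitor, had 97, 234 and 220.2 TPM in sgEPCR DMSO and 309, 197 and 292 in sgEPCR UM171. The groups overlapped, with sgEPCR UM171 replicate 2 below sgEPCR DMSO replicates 2 and 3. The difference of its responses was 0.94 ± 0.09 (SE, edgeR adjusted p = 1.2e-05), under 2-fold. SERPINB6, CST3 and CSTB had 86.6, 33.3 and 84.3, 77.6, 23 and 79.2 and 69.5, 51.3 and 69.8 TPM in sgEPCR UM171.

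The difference between the UM171 responses of the 2 lines was tested as an interaction, which asks whether the responses differ. The DMSO libraries are from 24 h in sgEPCR cells and 72 h in the control line. Time in culture thus enters this difference and cannot be told apart from genotype. It was called for 5 of 23 members, all with a larger response in sgEPCR cells (3.6% of all genes were called in that direction and 4.17% in the other). At an unadjusted p under 0.05, 3 members had a smaller response. DESeq2 called 6 larger and 1 smaller, limma 1 larger on log2(TPM + 1) and 0 on log2(TPM + 0.1). Total count scaling called 1 in each direction. A2M had a difference of 3.50 ± 0.33 (SE, edgeR adjusted p = 1.5e-05) on the log2 scale, beside a control response of 1.60 in the same fit. SERPINB4 had 7.28 ± 1.52 (SE, edgeR adjusted p = 0.0044), which missed the call and, with 0 counts in sgEPCR DMSO, depends on the prior count of the fit. For SERPINI1 the difference was 2.82 ± 0.25 (SE, edgeR adjusted p = 8.5e-06), beside 0.18.

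For SERPINA1 the difference of the responses was 2.16 ± 0.21 (SE, edgeR adjusted p = 1.9e-05) and for TIMP1 1.43 ± 0.15 (SE, edgeR adjusted p = 2.5e-05), beside control responses of -0.06 and 0.79. Some of these calls lay close to the limit. That of TIMP1 was lost without any 1 of 9 libraries (adjusted p up to 2.1e-04), namely the 3 DMSO libraries, UM171 24 h replicates 1 and 2, sgEPCR DMSO replicates 2 and 3 and sgEPCR UM171 replicates 1 and 3. That of SERPINA1 was lost without any of the 3 DMSO libraries, UM171 24 h replicates 1 and 2 or sgEPCR UM171 replicate 1 (up to 1.4e-04), and that of A2M without DMSO replicate 1, UM171 24 h replicate 1 or sgEPCR DMSO replicate 3 (up to 1.1e-04). Their log2 differences stayed at 1.37 to 1.45, 2.06 to 2.17 and 3.44 to 3.47 in those fits. SERPINB2, whose response was called in both lines (the control line had SERPINB2 up and SERPINI2 down in this fit, where 5.36% and 1.67% of all genes were called up and down), had -0.30 ± 0.20 (SE, edgeR adjusted p = 0.25) for the difference, which does not show that the lines respond alike. CSTA had -1.36 ± 0.25 (SE, edgeR adjusted p = 0.0011) and SLPI -0.65 ± 0.13 (SE, edgeR adjusted p = 0.0022), with smaller responses in sgEPCR cells that missed the call. Without the 2 libraries rich in mitochondrial counts 5 members had a called larger response and 1, CSTA, a called smaller one (-1.36).

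**Figure D4:**
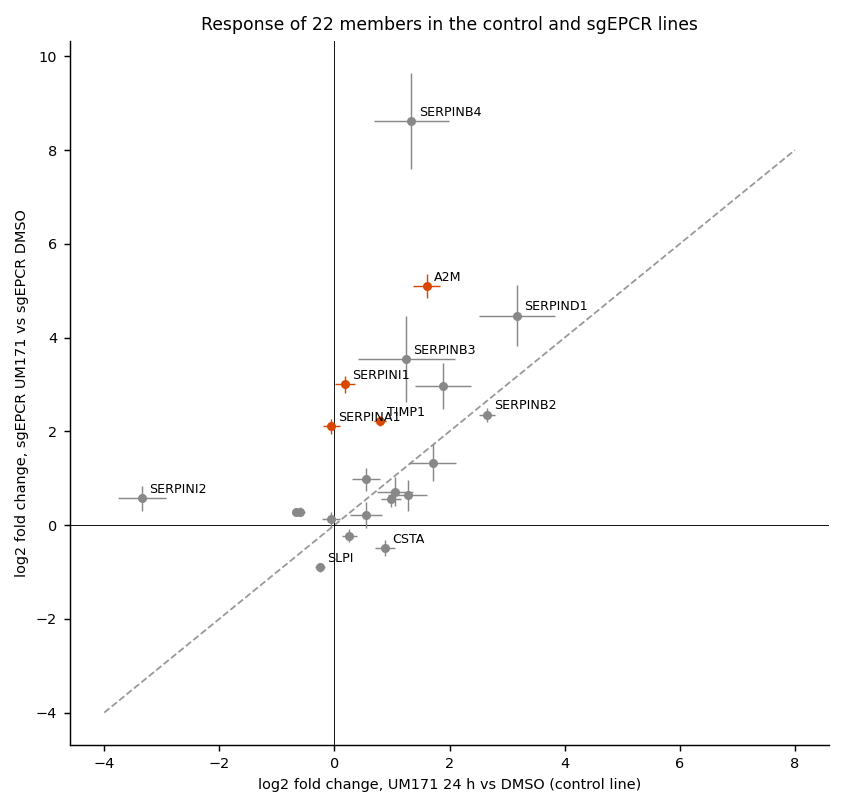
Log2 fold change with UM171 for 24 h of 22 members in the control line (x axis) and in sgEPCR cells (y axis), both from the fit of 12 libraries; bars are standard errors, the dashed line marks equal responses, and orange marks genes called in the test of the difference. A2M, SERPINI1, SERPINA1 and TIMP1 lie above the dashed line in orange, SERPINB4 higher still in grey with the widest bar, and SLPI and CSTA below it.

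Compared directly, sgEPCR UM171 libraries had 5 called members above the control UM171 24 h libraries and none below (2.67% and 1.79% of all genes). DESeq2 called 6 above and 1 below, limma 1 above, and 3 were below at an unadjusted p under 0.05. Total count scaling called 2 above and 1 below. The log2 difference was 4.50 ± 0.25 (SE, edgeR adjusted p = 5.7e-07) for A2M, 1.93 ± 0.17 (SE, edgeR adjusted p = 9.5e-06) for SERPINI1 and 1.14 ± 0.10 (SE, edgeR adjusted p = 1.3e-05) for TIMP1. SERPINI2 had 1, 1 and 1 counts in the control and 24, 14 and 22 in sgEPCR libraries, 4.40 ± 0.39 (SE, edgeR adjusted p = 9.7e-06). The calls of TIMP1 (1.08 to 1.11) and SERPINI2 (4.19 and 4.31) were lost without UM171 24 h replicate 1 or 2, that of TIMP1 also without sgEPCR UM171 replicate 1, and that of SERPINI1 without UM171 24 h replicate 3 (1.92). CSTA measured 51.3, 39.7 and 52.9 TPM in sgEPCR UM171 against 118, 119 and 119.6 in the control, with -1.05 ± 0.17 (SE, edgeR adjusted p = 7.1e-04).

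Proteases of the kinds that these inhibitors act on, and related genes, were counted from lists made with earlier results of the data known. Not every listed gene encodes an active protease or a target of a member. Of 12 genes for cysteine cathepsins and legumain, 10 were tested and 5 were called higher and 0 lower at 72 h, with CTSB, CTSH and CTSS, targets of the cystatins, at log2 1.12 ± 0.07, 1.19 ± 0.04 and 1.09 ± 0.06 (SE). Of 7 genes of plasminogen activation, the targets of SERPINB2 among them, 6 were tested and 2 were higher at 72 h, the urokinase receptor PLAUR at 1.53 ± 0.07 and tissue plasminogen activator PLAT at 1.97 ± 0.25. Of 6 genes listed as neutrophil serine proteases 4 were tested and 2 were higher at 72 h, CTSG at 2.11 ± 0.06 and AZU1 at 1.29 ± 0.19. Earlier, AZU1 was lower at 24 h (-2.52 ± 0.27) and 48 h (-1.39 ± 0.24), and PRSS57 was lower at 48 h (-1.03 ± 0.09). CTSF, a cathepsin, was also lower at 48 h (-1.08 ± 0.09). GZMB, the only tested gene of 5 granzymes, rose from 0.05 TPM in DMSO (SD 0.05, n = 3) to 167 (SD 7.22, n = 3) at 72 h, while its inhibitor SERPINB9 stayed at 2 counts or fewer.

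Among the metalloproteinases, 8 of 23 MMPs were tested and 4 were higher at 72 h, with MMP19 at 3.22 ± 0.12, MMP2 at 2.81 ± 0.13 and MMP15 at 1.14 ± 0.19, while MMP25 was lower at 48 h (-1.60 ± 0.06). Of 9 ADAM genes 7 were tested, and ADAM9 (1.12 ± 0.04) and ADAM28 (3.39 ± 0.13) were higher and ADAM8 (-1.60 ± 0.15) lower. Of 9 mostly trypsin-like surface and growth factor activating proteases, with targets of SPINT1 among them, 3 were tested. TMPRSS13 was higher at 72 h (2.03 ± 0.30), while HGFAC was called lower at 24 and 48 h. Of 8 complement proteases 4 were tested and none was called at 72 h, though CFD (-1.69 ± 0.09) and C1R (-1.44 ± 0.20) were lower at 24 h and again at 48 h. Of 30 other protease inhibitors 11 were tested and 4 were higher at 72 h, with the Kunitz inhibitor TFPI at 3.50 ± 0.07, the A2M relative CD109 at 2.53 ± 0.07 and the calpain inhibitor CAST at 1.97 ± 0.16. All of these are edgeR log2 fold changes with SE against DMSO, read beside the 15% of all genes called higher at 72 h.

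The same lists were counted for the difference between the lines, which was called as larger in sgEPCR cells for 3.6% of all genes and as smaller for 4.17%. The difference was called, with a larger response in sgEPCR cells, for 3 of 6 tested genes of plasminogen activation, S100A10 (3.36 ± 0.11), PLAUR (1.93 ± 0.12) and PLAU (2.03 ± 0.23). It was also called for 3 of 11 other inhibitors, CD109 (2.36 ± 0.13), SPINK1 (10.21 ± 1.01) and CAST (2.73 ± 0.24), for MMP19 (4.55 ± 0.32) of 8 MMPs, and for CTSK (1.88 ± 0.23) of the 10 tested cathepsin genes. It was called for no gene of the ADAM, complement, granzyme, neutrophil or trypsin-like lists by edgeR. For the response in sgEPCR cells itself, 6.99% of all genes were called higher, and so were 4 of the 6 plasminogen activation genes, 4 of 8 MMPs, 4 of the 10 cathepsin genes and 4 of 11 other inhibitors, while CTSG (-1.57 ± 0.20) was called lower. PLAU, urokinase, is the protease that SERPINB2 inhibits, and PLAUR is its receptor.

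Markers of the myeloid line itself and of other cell types moved with UM171 in the same libraries. The sum of 9 myeloid markers was 864 to 890 TPM in DMSO and lower, 655 to 714, at 72 h. In sgEPCR cells it was 406 to 546 in DMSO and 720.5 to 742 with UM171. The sum of 3 mast cell markers (TPSAB1, CPA3 and MS4A2) was 9.59 to 11.3 TPM in DMSO, 19.0 to 20.1 at 24 h, 65.9 to 76.7 at 48 h and 145 to 153 at 72 h. It was 1.26 to 1.61 in sgEPCR DMSO and 30.8 to 42.5 in sgEPCR UM171. MS4A2 never exceeded 0.27 TPM. The sum of 5 monocyte and macrophage markers was 119 to 141 TPM in DMSO, 253 to 270.3 at 72 h, 81.9 to 133 in sgEPCR DMSO and 145 to 176 in sgEPCR UM171, with CD14 and FCGR3A at or under 0.42 TPM and ITGAM up to 100.3. Of the lymphoid markers, CD3E reached no more than 0.11 TPM and MS4A1 was at 0, while CD79A lay at 5.87 to 40.4 TPM and NKG7 at 2.68 to 26.2. The 3 erythroid markers summed to at most 0.08 TPM, and of 6 endothelial, fibroblast and epithelial markers PECAM1 made up most of a sum of 5.47 to 46.3. The part of these markers in the values of the inhibitors was not tested.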

How the data were processed

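RNA from 21 OCI-AML5 libraries, in 7 groups of 3, was sequenced by the authors. Per the labels' processing notes, reads were handled with CASAVA 1.8.2 and Trimmomatic 0.35, aligned to GRCh38 with STAR 2.5.1b and counted with RSEM 1.2.28. The deposited expected counts are RSEM estimates that share ambiguous reads between similar genes. The TPM values deposited by the authors are scaled to the same total in each library. The part of this scaling in the lower TPM of libraries rich in mitochondrial counts was not tested. In sgEPCR UM171 replicate 2, members ran from 0.272 (TIMP1) to 1.13 (SERPINB10) times the mean of the other libraries of the group.

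Gene identifiers were matched without their version to GENCODE release 44 symbols (57392 of 58174 matched), after the counts of 45 PAR_Y entries were added to their X copies. Groups followed the labels. Expected counts were rounded, filtered with filterByExpr, scaled by TMM and tested with the quasi-likelihood test of edgeR 4.0.16 in R 4.3.3. One fit held the 15 time course libraries and another the 12 libraries of DMSO and 24 h UM171 in both lines, with the difference of the responses as an interaction. Calls needed a Benjamini-Hochberg adjusted p under 0.0001 over all tested genes and a change over 2-fold. These limits are those of the study, which tested with sleuth on kallisto estimates. SE was taken as the size of the log2 change over the root of F. Levels are given in TPM, and in counts for genes near the floor. Intervals are exact 95% counting intervals and cover counting error only.

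Members and lists were chosen with earlier results of these data known. Members above the filter in either fit are named, those called with their value in each library, and of each list up to 3 called genes. Alternatives included limma 3.58.1 on log2(TPM + 1) or log2(TPM + 0.1), DESeq2 1.42.0, other scalings and filters, a replicate block, fits of single comparisons, a looser limit, removal of mitochondrial genes or of libraries with over 20% of them, and leaving out each library. On simulated counts with 200 genes changed 4-fold, the 72 h test recovered 200 of 200 (14262 genes) and the interaction 155 of 200 (13905 genes), each with 0 false calls. The simulation left out genes with low mean counts, gave all genes the same spread and held no libraries rich in mitochondrial counts. It therefore checks the steps of the test and does not vouch for calls near the floor or in the sgEPCR groups. RefSeq windows were searched for letters in Python 3.11.15, and transcripts were aligned with Biopython 1.88. Same-numbered libraries were checked for shared deviations, and in the time course the numbers did not pair them. In the sgEPCR groups the check could not decide, because the libraries rich in mitochondrial counts weigh on it. A member and a marker gene that enter the counts are not reported here by name.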

Additional observations from a re-analysis of the deposited data

Results flagged for a closer look

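For A2M, SERPINI1, SERPINA1 and TIMP1 the response to UM171 was called different between sgEPCR and control cells in the test of the difference itself (edgeR, fit of 12 libraries). The log2 difference was 3.50 for A2M, 2.82 for SERPINI1, 2.16 for SERPINA1 and 1.43 for TIMP1, each larger in sgEPCR cells. The sgEPCR DMSO libraries (24 h) and the control DMSO libraries (72 h) differ in time as well as genotype, and these cannot be told apart. The baseline of SERPINA1 was at -1.14 on the log2 scale in sgEPCR DMSO against DMSO (edgeR adjusted p = 2.6e-04), that of SERPINI1 at -0.89 (edgeR adjusted p = 0.0031), that of A2M at 1.00 (edgeR adjusted p = 0.0083) and that of TIMP1 at -0.29 (edgeR adjusted p = 0.050). In TPM, A2M overlapped between these groups, with a ratio of means of 1.21, less than in the count fit. SERPINA1, SERPINI1 and TIMP1 were lower in TPM without overlap. Without the 2 libraries rich in mitochondrial counts the differences were 3.59 for A2M, 2.66 for SERPINI1, 2.26 for SERPINA1 and 1.52 for TIMP1. Leaving out 1 library at a time lost the call of TIMP1 in 9 of 12 fits, of SERPINA1 in 6 and of A2M in 3. That of SERPINI1 stayed in all 12. Of all tested members, limma called 1 on log2(TPM + 1) and 0 on log2(TPM + 0.1). Total count scaling called 1 in each direction.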

How the results depend on the processing

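Of 69 called pairs of member and comparison, 29 lost the call under at least 1 alternative, 12 of them when a single library was left out. Over 176 member values past an adjusted p of 0.05, 2 of 4593 alternatives turned the direction, both for SERPINB6 at 24 h against 6 h (-0.0145 with upper quartile scaling and -0.0526 with total counts). The looser limit (adjusted p under 0.05, any fold) gave 12, 18 and 23 members at 6, 24 and 48 h, 16, 17 and 17 for the steps to 24, 48 and 72 h, 17 for the sgEPCR response, 11 for the difference of responses, 7 for sgEPCR DMSO against DMSO and 14 for sgEPCR UM171 against UM171 24 h. With limma on log2(TPM + 1) the counts were 1 at 6 h, 1 for 24 h against 6 h, 1 for the difference and 1 for sgEPCR UM171 against UM171 24 h. On log2(TPM + 0.1) they were 1, 2, 0 and 1, and 2 for 72 h against 48 h. At least 10 counts in every library left 2 calls for 24 h against 6 h, 4 for 48 h against 24 h, 2 for 72 h against 48 h and 3 for sgEPCR UM171 against UM171 24 h, since it removes genes near the floor. Total count scaling gave 2 for the difference (1 in each direction) and 3 for the UM171 libraries of both lines (2 above, 1 below). Fits of the compared groups alone gave 1 at 6 h, 1 for the sgEPCR response and 0 for the UM171 libraries of both lines, with fewer libraries behind the spread. For sgEPCR DMSO against DMSO, with 0 calls, DESeq2 gave 2, upper quartile scaling, RLE size factors, no filter and removal of mitochondrial genes 1 each, and the fit without the 2 libraries rich in mitochondrial counts 3.

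Leaving out each library in turn gave 1 to 2 calls at 6 h, 6 to 7 at 24 h, 12 to 15 at 48 h, 16 at 72 h, 3 to 4, 7 to 8 and 2 to 4 for the steps, 6 to 7 for the sgEPCR response, 2 to 5 for the difference, 0 to 1 for sgEPCR DMSO against DMSO and 3 to 6 for sgEPCR UM171 against UM171 24 h. The cause was not tested. Same-numbered libraries of the time course did not deviate together (r of -0.0827 to 0.0778 over 30 pairs). The sgEPCR pairs had r of -0.609, -0.604 and 0.448. The libraries rich in mitochondrial counts, sgEPCR DMSO replicate 1 and sgEPCR UM171 replicate 2, had r of 0.69 and weigh on every r of these groups. The check thus cannot show whether sgEPCR numbers pair, and no numbers were taken as pairs. With the replicate block the calls were 1, 6, 14 and 16 at the 4 times, 4, 7 and 3 for the steps, 1 for the sgEPCR response and 0 for the difference, for sgEPCR DMSO against DMSO and for the UM171 libraries of both lines. Genes near 3 counts per library, such as SERPINI2, SERPINF2 and SERPIND1 in DMSO, are limited by depth.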
